A study of Mus musculus with 45 samples.

Results

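Embryonic stem cells (ESCs) of the mouse that carried 2 copies of a slow allele of Polr2a (slow/slow) were compared with ESCs that carried 1 copy (WT/slow), 5 min after removal of the transcription inhibitor DRB. The quantity compared was the wave-front boundary, the distance from the transcription start site (TSS) to the end of the newly made RNA, given for each transcript in steps of 100 bases. Members were the transcripts of at least 20 kb with a boundary in all 6 samples, 3 per genotype. These were 26414 of the 122968 transcripts listed and of the 35031 that were long enough, and they came from 8660 genes. A single distance, 2.5 kb, recurred far more often than any other and was counted apart. All 6 boundaries lay above it in 13016 members (49.3%) from 5222 genes, and the fronts described below are those of these transcripts unless stated otherwise. Members of 1 gene often share a start site, and the 13016 transcripts held 11718 distinct pairs of gene and start.

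The WT/slow cells have the genotype Polr2a[wt/R749H] and the slow/slow cells Polr2a[R749H/R749H], while WT/WT cells carry no slow allele. WT/WT cells are the parental E14 line, the WT/slow line was made from it by targeting the endogenous gene, and the slow/slow line was made from the WT/slow line, so each slow genotype is represented by a targeted line and any other difference between these lines cannot be told apart from the allele. Cells grew in 2i medium, received DRB for 4 h and were harvested in 3 biological replicates at each time. The nucleotide analogue 4-thiouridine (4sU) was present during the last 10 min before harvest, so that labelling of the samples at 5 min began while DRB was still present. Each table was set against the average of the samples at 0 min, per its name. WT/WT cells at 5 min and both slow genotypes at 15 min are given for reference.

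RNA polymerase II (RNAPII) pauses shortly after initiation, and the kinase P-TEFb releases it by phosphorylating the elongation factor SPT5 and the polymerase's C-terminal domain. DRB blocks this kinase, so that polymerases stay near promoters until the drug is washed out and then move into gene bodies as a wave. The leading edge of the 4sU-labelled RNA marks how far the wave has come, and its distance after a short time depends on the rate of elongation and on how soon polymerases leave the pause. Polr2a encodes the largest, catalytic subunit of RNAPII, and the R749H exchange changes an arginine to a histidine in it.

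The codon exchanged in the slow allele lies in exon 14 of Polr2a transcript ENSMUST00000058470, on the minus strand at chr11:69743326-69743388 (GRCm38, 63 bases), where the reference reads as follows, with the arginine codon 749 (69743356 to 69743358) in capitals. It is shown because its dose is the variable that separates the genotypes.

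Polr2a codon 749, reference: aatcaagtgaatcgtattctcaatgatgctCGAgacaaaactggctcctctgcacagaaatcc

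The boundary tables hold distances and not sequence, so they carry no direct check of the allele. Polr2a itself (chromosome 11, 69733997 to 69758637, 24.6 kb) had fronts at 12.4, 15.7 and 6.8 kb in WT/slow and at 12.9, 7.6 and 6.4 kb in slow/slow replicates 1 to 3. The highest slow/slow value exceeded 2 of the 3 WT/slow values, so the groups overlapped. The difference was -2.67 kb (SE 3.24, limma adjusted p = 0.761), and it ranged from -5.08 kb without WT/slow replicate 3 to -0.63 kb without WT/slow replicate 2. WT/WT replicates had fronts at 15.5, 18.5 and 10.3 kb. The mean WT/slow front lay in intron 4 and the mean slow/slow front in intron 1.

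Boundaries were called for 43636 to 49491 transcripts per sample. The tables give no read counts, so the depth is unknown and the spread between replicates is the only error available. Replicates of 1 genotype ranked transcripts only loosely alike: across the 13016 transcripts, which are not independent, Spearman's rank correlation between replicates was 0.137 to 0.384 in WT/slow and 0.227 to 0.285 in slow/slow cells. The SD of a transcript over its 3 replicates had a median of 4.29 kb in WT/slow and 2.58 kb in slow/slow cells, and it was smaller in slow/slow cells for 67.4% of transcripts. WT/slow replicate 2 stood apart from the other WT/slow samples by its long fronts, and values without it are given beside several results below. Of the markers of the labelled cell type, Esrrb and Tfcp2l1 had a boundary in all 6 samples, which was 2 of 9, and Pou5f1, Nanog and Sox2, all far shorter than 20 kb, had none in any. Markers of primitive endoderm had one in all 6 samples for 4 of 6 genes and neural markers for 2 of 5. A boundary is a distance and not a level, so these counts say nothing about how much of any marker was made.

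The front had moved less far in slow/slow than in WT/slow cells in most transcripts, but the sample medians of the genotypes overlapped. In WT/slow replicates 1 to 3 the median front lay at 11.2, 16.4 and 12.9 kb. In slow/slow replicates it lay at 12, 10.7 and 9.2 kb. The longest slow/slow median was above the shortest WT/slow median, and the remaining slow/slow medians were below every WT/slow value. The group means were 13.5 kb ± 2.65 and 10.6 kb ± 1.40 (SD, n = 3), a difference of -2.87 kb or -21.2% (exact permutation p = 0.2, two-sided, where 3 samples against 3 cannot go below 0.1). The difference was -1.42 kb without WT/slow replicate 2. Of the 13016 transcripts, 9779 (75.1%) had a shorter mean front in slow/slow cells, and this share was 60.7% without WT/slow replicate 2.

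The shares of transcripts with a shorter slow/slow front depended on which replicates were set against each other. Against WT/slow replicate 1, 44.5%, 53.0% and 58.4% of transcripts were shorter in slow/slow replicates 1, 2 and 3. Against WT/slow replicate 3 these shares were 56.4%, 66.7% and 73.4%. Against WT/slow replicate 2 they were 74.9%, 88.1% and 83.1%. In 8 of the 9 pairs of samples more transcripts were shorter in slow/slow than were not, the exception being the pair of both replicates 1.

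**Figure D1:**
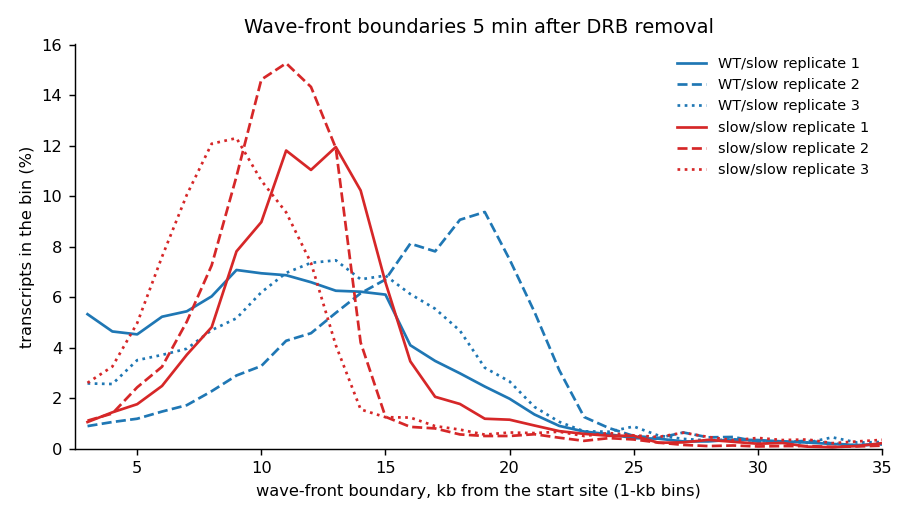
Percentage of the 13016 transcripts whose wave-front boundary fell in each 1-kb bin (x axis, kb from the start site, drawn to 35 kb; y axis, percent of transcripts) for each of the 3 WT/slow (blue) and 3 slow/slow (red) samples at 5 min. The slow/slow curves have narrow peaks with medians at 9.2 to 12 kb, while the WT/slow curves are broad with medians at 11.2 to 16.4 kb.

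The genotypes differed more at the upper than at the lower of 5 percentiles compared, over fronts that all exceeded 2.5 kb. A 10th percentile of 4.5, 8.9 and 5.8 kb in WT/slow replicates stood beside 7.4, 6.9 and 5.4 kb in slow/slow replicates, with means of 6.4 kb ± 2.26 and 6.57 kb ± 1.04 (SD, n = 3). The 75th percentile was 15, 19.3 and 16.6 kb in WT/slow and 14.2, 12.4 and 11.7 kb in slow/slow cells. At the 90th percentile the values were 19.3, 21.6 and 20.4 kb and 17.8, 13.9 and 18.3 kb. All slow/slow samples were below all WT/slow samples at the last 2 of these percentiles and the samples were mixed at the first. The mean differences were 0.17, -1.20, -2.87, -4.20 and -3.77 kb at the 10th, 25th, 50th, 75th and 90th percentiles. The exact permutation p was 1, 0.6, 0.2, 0.1 and 0.1, and 1, 0.75, 0.333, 0.25 and 0.25 after adjustment over the 5 percentiles, which were chosen after the values were seen.

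Fronts beyond 20 kb made up 8.28%, 19% and 11% of transcripts in WT/slow replicates 1 to 3 and 6.99%, 3.98% and 8.93% in slow/slow replicates. The highest slow/slow share lay just above the lowest WT/slow share, so these groups overlapped. Beyond 30 kb the shares were 2.17%, 2.85% and 3.26% in WT/slow and 2.11%, 0.976% and 3.59% in slow/slow replicates. These were mixed, with the highest share in a slow/slow sample. Fronts above 5 and up to 10 kb made up 29.6%, 10.8% and 22.6% in WT/slow and 24.6%, 35.7% and 51.1% in slow/slow cells, which also overlapped.

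Slow/slow fronts were packed more closely around their median than WT/slow fronts. The interquartile range over transcripts was 7.6, 6.6 and 7.4 kb in WT/slow replicates 1 to 3. It was 4.5, 3.5 and 4.6 kb in slow/slow replicates. Every slow/slow sample was below every WT/slow sample. The means were 7.20 kb ± 0.529 and 4.20 kb ± 0.608 (SD, n = 3), a ratio of 0.583 (exact permutation p = 0.1, two-sided, the smallest that 3 against 3 allows). Leaving out any 1 sample gave ratios from 0.556 to 0.632. On the log2 scale, where the spread is relative to the distance, the ratio was 0.707 and the exact permutation p was 0.2, so the samples no longer separated fully.

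Over the 10783 transcripts with all 9 boundaries above 2.5 kb, WT/WT cells included, the median front was 10.9, 19 and 12.2 kb in WT/WT replicates, 11.4, 16.6 and 13 kb in WT/slow replicates and 12.1, 10.7 and 9.2 kb in slow/slow replicates. Replicate 2 was the longest in both WT/WT and WT/slow cells, but not in slow/slow cells. The means were 14.0 kb ± 4.35, 13.7 kb ± 2.66 and 10.7 kb ± 1.45 (SD, n = 3), so the WT/slow mean was close to the WT/WT mean and most of the step in the means lay between 1 and 2 slow alleles. The slope was -1.68 kb per slow allele (exact permutation over 1680 arrangements, p = 0.208, two-sided). With 3 samples per dose the WT/slow values carry no weight in this slope, so it reflects WT/WT and slow/slow cells only. Leaving out a WT/slow sample therefore kept it at -1.68 kb. The slope was -0.64 kb without WT/WT replicate 2. Leaving out any other sample gave slopes from -2.51 kb, without WT/WT replicate 1, to -1.24 kb, without slow/slow replicate 3.

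The interquartile range over the same 10783 transcripts was 7.5, 5.0 and 7.0 kb in WT/WT replicates, 7.4, 6.4 and 7.2 kb in WT/slow and 4.3, 3.4 and 4.5 kb in slow/slow replicates. Each slow/slow sample was below each sample of the other genotypes, with means of 6.50 kb ± 1.32, 7.0 kb ± 0.529 and 4.07 kb ± 0.586 (SD, n = 3). Fronts beyond 20 kb made up 20.9% ± 15, 13% ± 5.88 and 6.77% ± 2.76 (SD, n = 3) of these transcripts. In the WT/WT group 38.2% in replicate 2 stood against 11.6% and 12.9% in the others.

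**Figure D2:**
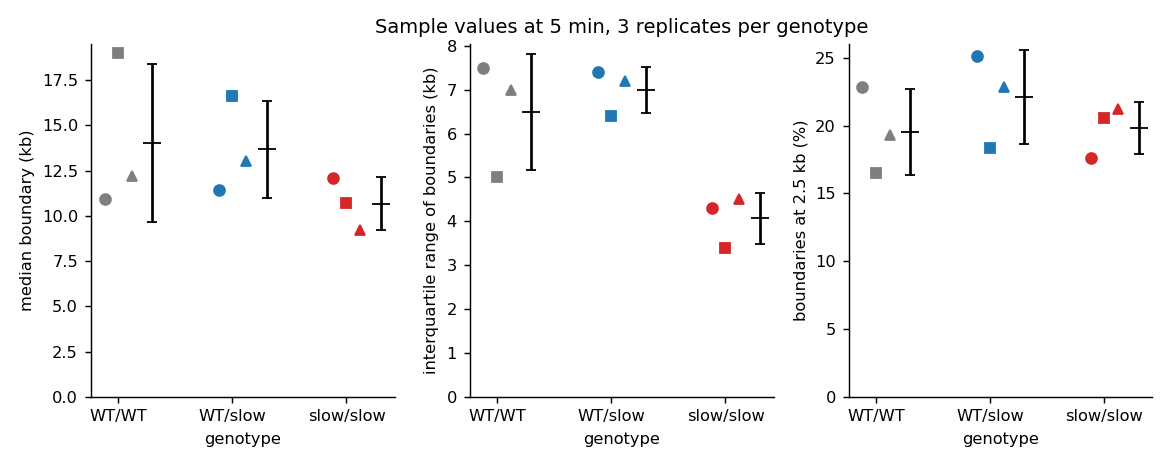
Median boundary (left, kb), interquartile range of boundaries (middle, kb) and share of boundaries at 2.5 kb (right, %) in each of 9 samples at 5 min, by genotype; circles, squares and triangles are replicates 1, 2 and 3, and black bars are the mean ± SD (n = 3). The 3 slow/slow interquartile ranges, 3.4 to 4.5 kb, lie below all others, while medians and shares overlap between genotypes.

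Boundaries at 2.5 kb did not separate the samples by genotype. They made up 25.1%, 18.2% and 22.6% of the 26414 members in WT/slow replicates 1 to 3, and 17.5%, 20.4% and 21.1% in slow/slow replicates. The samples were mixed, with means of 22.0% ± 3.49 and 19.7% ± 1.91 (SD, n = 3), and the difference of -2.30 percentage points had an exact permutation p of 0.4 (two-sided). It was -0.75 points without WT/slow replicate 1 and -4.18 points without WT/slow replicate 2. Over the 25384 transcripts of at least 20 kb with a boundary in all 9 samples, the WT/WT share was 19.6% ± 3.18 (SD, n = 3). Boundaries below 2.5 kb made up 0.663% to 0.996% of members per sample. At least 1 of the 6 boundaries was at 2.5 kb in 13208 members, and all 6 were in 706.

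Members that stood at 2.5 kb in all 3 replicates of 1 genotype and above it in all 3 of the other were of similar number in either direction. There were 177 (0.67% of members, 131 genes) at 2.5 kb in slow/slow cells only and 170 (0.644%, 128 genes) in WT/slow cells only. Abcb1a, which encodes a drug efflux pump, had fronts at 24.8, 26.3 and 26.0 kb in WT/slow and at 2.5 kb in all slow/slow replicates, on a retained-intron transcript of 28.8 kb. Its WT/WT fronts lay at 25.5, 27.9 and 2.5 kb. Mbd5, which encodes a methyl-CpG-binding domain protein, had WT/slow fronts at 30.6, 13.7 and 34.8 kb on 1 transcript against 2.5 kb in slow/slow replicates.

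Other transcripts of Mbd5 were shorter in slow/slow cells too but by less, with differences of -5.67 to -4.33 kb in the 7 that had all boundaries above 2.5 kb. In the opposite direction, Mroh4 stood at 2.5 kb in all WT/slow replicates and at 15.3, 22.4 and 18.2 kb in slow/slow replicates, and it stood at 2.5 kb in all WT/WT replicates as well. Gfra1, which encodes the receptor for the neurotrophic factor GDNF, stood at 2.5 kb in WT/slow and at 30.3, 11.4 and 11 kb in slow/slow replicates. Its WT/WT fronts were 29.0, 25 and 5.6 kb. Genes named here are from the 5 per direction with the highest mean in the other genotype, so their values are a description.

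The difference in the median front was present in each class of transcript length and was smallest in the longest transcripts. It was -2.98 kb in 2942 transcripts of 20 to 30 kb, -3.10 kb in 4852 of 30 to 60 kb and -3.10 kb in 2520 of 60 to 100 kb. In 1824 transcripts of 100 to 200 kb it was -2.37 kb, and in 878 of at least 200 kb it was -1.80 kb. The sample medians overlapped in every class. Exact permutation p-values (two-sided) were 0.2, 0.2, 0.2, 0.3 and 0.5, and 0.333, 0.333, 0.333, 0.375 and 0.5 after adjustment over the 5 classes. Without WT/slow replicate 2, the differences from the shortest to the longest class were -1.63, -1.77, -1.28, -0.77 and -0.03 kb.

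In the longest class, WT/slow medians were 10.5, 15.9 and 10.7 kb and slow/slow medians 11.9, 10.2 and 9.6 kb. WT/slow replicate 2 alone lay above all the slow/slow samples there. A boundary cannot pass the end of its transcript. In the shortest class the WT/slow mean of sample medians was 13.4 kb ± 2.53 (SD, n = 3), within 20 kb. Whether the transcript end limited the far fronts of that class was not tested. Boundaries at 2.5 kb were more frequent among the longest transcripts, at 32.7% ± 2.20 in WT/slow and 33.8% ± 3.94 in slow/slow cells (SD, n = 3), against 20.8% ± 5.58 and 17.5% ± 1.12 in the shortest class.

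**Figure D3:**
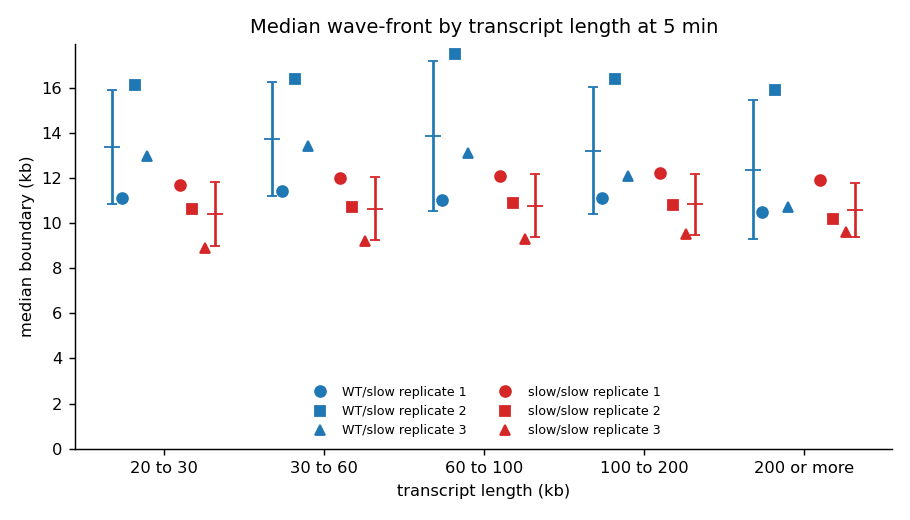
Median boundary (y axis, kb) in each sample at 5 min by class of transcript length (x axis, kb); blue is WT/slow and red slow/slow, circles, squares and triangles are replicates 1, 2 and 3, and bars are the mean ± SD (n = 3). Slow/slow medians stay between 8.9 and 12.2 kb in all classes, and the WT/slow median of replicate 2 is the highest in each.

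Gene structure was set beside the fronts for the 12079 transcripts whose start and end are the same in GENCODE M21. Of 3 classes of about equal size, in that with the lowest GC content over the first 10 kb (31.8% to 42.2%) the difference in the mean of sample medians was -3.50 kb, in the middle class -2.80 kb and in the class with the highest GC content (45.5% to 60%) -2.40 kb. The WT/slow means were 14.1 kb ± 3.10, 13.6 kb ± 2.63 and 12.8 kb ± 2.52, and the slow/slow means 10.6 kb ± 1.10, 10.8 kb ± 1.5 and 10.4 kb ± 1.67 (SD, n = 3). These steps are smaller than the spread between replicates. Transcripts with 1 exon start in the first 10 kb differed by -3.03 kb and those with 3 or more by -2.73 kb.

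Most fronts lay in introns, which make up most of these transcripts. Exons held 2.23% to 2.91% of the fronts per sample. Intron 1 held 48.8%, 38.2% and 44.1% of them in WT/slow replicates 1 to 3 and 46.6%, 49.9% and 52.2% in slow/slow replicates, with overlapping groups (means 43.7% ± 5.32 and 49.6% ± 2.83, SD, n = 3; exact permutation p = 0.2, two-sided). Fronts in intron 3 or later made up 33.6% ± 5.90 and 27.5% ± 2.88. By chromosome, the median difference over genes was below 0 on each of the 20 chromosomes with at least 100 genes, from -3.30 to -1.77 kb, the latter on chromosome X.

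No single transcript passed the test. Limma with Benjamini-Hochberg adjustment called 0 of 13016 transcripts (0%) at an adjusted p under 0.05, and the lowest adjusted p was 0.0587. At an unadjusted p under 0.05 it gave 1288 transcripts (9.9%) with shorter and 96 (0.738%) with longer fronts in slow/slow cells. The difference of a transcript had a median of -2.53 kb and ran from -7.77 kb at the 10th to 3.20 kb at the 90th percentile, with a median SE of 3.26 kb. Other settings called at most 12 transcripts. With boundaries at 2.5 kb included, these included Sulf1, which encodes a heparan sulfatase, Pla2g4a, Abcb1a, Tpst1, March8 and Pcdhgb7 with shorter and Cnih4 and Evi5 with longer slow/slow fronts. The differences of the 3 Sulf1 transcripts were -34.9, -34.9 and -34.8 kb (SE 1.79, 1.75 and 1.71). Of the genes just named, all but Pla2g4a and March8 had a value at or below 2.5 kb. Some repeated 1 low value in all replicates of a genotype, without spread. It was 0.8 kb for Tpst1 and 2.5 kb for Abcb1a in slow/slow, and 1.4 kb for Evi5 in WT/slow cells. Taking 1 transcript per gene called 2 genes, both shorter in slow/slow cells, Pla2g4a among them (limma adjusted p = 0.0451).

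Replicates of the 2 genotypes did not overlap in 2359 transcripts with slow/slow lower (18.1%) and 177 with slow/slow higher (1.36%). With 1 transcript per gene, the longest, these were 893 (17.1%) and 74 (1.42%) of 5222 genes. The count lower was 5067 without WT/slow replicate 1 and 3917 without slow/slow replicate 1. The count with slow/slow higher was 947 without WT/slow replicate 2. The genes below were taken as those with the smallest unadjusted p among non-overlapping genes in each direction, and none of them passed the adjusted test across all transcripts.

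Among genes with a shorter slow/slow front, Pla2g4a (chromosome 1, 149829618 to 149961290, 132 kb), which encodes the cytosolic phospholipase that frees arachidonic acid, had fronts at 30.4, 29.2 and 29.1 kb in WT/slow and at 7.7, 6.0 and 8.2 kb in slow/slow replicates. The difference was -22.3 kb (SE 2.20, limma adjusted p = 0.0587), between intron 2 and intron 1. WT/WT replicates were widely spread and lay outside both ranges, with fronts at 3.3, 28.9 and 18.7 kb.

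Mtmr1, which encodes a myotubularin-related lipid phosphatase, had WT/slow fronts at 25.8, 20.8 and 26.7 kb and a slow/slow front of 3.1 kb in each replicate, on a transcript of 29.4 kb. Mdga1, which encodes a surface protein that binds neuroligins, had fronts at 48.3, 51.3 and 44.9 kb in WT/slow and at 12.2, 15.8 and 27.5 kb in slow/slow replicates (difference -29.7 kb, SE 4.28). Sh3bgrl2 fronts lay at 24.1, 30.7 and 30.3 kb and at 10.2, 8.8 and 8.4 kb. The gap between the genotypes was over 10 kb in each of these 3 genes. Fam198b had fronts at 31.7, 39.4 and 32.1 kb in WT/slow and at 12.6, 10.5 and 13.6 kb in slow/slow replicates. Its 3 tested transcripts differed by -22.2 to -3.13 kb. Galk2, which encodes an N-acetylgalactosamine kinase, had fronts at 17.1, 25.7 and 30.3 kb and at 4.9, 4.5 and 5.5 kb, but the 8 transcripts of this gene differed by -19.4 to 19 kb. Its difference thus turns on the transcript chosen.

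The last 3 of these genes act in RNA processing, translation and traffic. Nsrp1, which encodes a splicing regulator of nuclear speckles, had WT/slow fronts at 21.9, 20.2 and 22.7 kb and slow/slow fronts at 10.8, 10 and 7.5 kb. Dhx29, an RNA helicase of translation initiation, had fronts at 18.1, 21.3 and 20.1 kb and at 8.5, 9.4 and 8.3 kb. Rab2a, a small GTPase of traffic between the endoplasmic reticulum and the Golgi, had fronts at 22.4, 21.5 and 20.5 kb and at 8.2, 12.7 and 8.5 kb. In all 3 the mean WT/slow front was more than double the mean slow/slow front, with differences of -12.2, -11.1 and -11.7 kb (SE 2.32, 2.25 and 2.42; limma adjusted p = 0.467 for each).

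Among genes with a longer slow/slow front, Pbx4 (chromosome 8, 69832491 to 69872292, 39.8 kb), a homeobox gene of the TALE class, had fronts at 3.3, 8.6 and 3.3 kb in WT/slow and at 24.4, 28.3 and 26.0 kb in slow/slow replicates, a difference of 21.2 kb (SE 2.64, limma adjusted p = 0.148). Its other transcripts reached -0.60 kb. Ptger3, which encodes a receptor for prostaglandin E2, had fronts at 4.8, 3.9 and 3.7 kb and at 25.1, 45.0 and 30.2 kb. For Myo9a, an unconventional myosin, they lay at 15.4, 13.5 and 14.1 kb in WT/slow and at 27.8, 24.8 and 28.1 kb in slow/slow replicates. WT/WT fronts of these 3 genes were widely spread, with 29.2, 27.7 and 6.3 kb for Pbx4, 8.5, 34.1 and 36.5 kb for Ptger3 and 15.4, 22.9 and 24.3 kb for Myo9a.

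Shld1, which encodes a subunit of the shieldin complex in DNA repair, had WT/slow fronts at 5.6, 5.6 and 5.2 kb and slow/slow fronts at 18.3, 17.1 and 23.9 kb. The WT/WT fronts of Shld1, 19.3, 21.1 and 23.2 kb, lay within the range of the slow/slow fronts. Nbn, which encodes a subunit of the MRN complex at DNA breaks, had fronts at 12.2, 11.4 and 14.1 kb and at 21.2, 21.4 and 19.5 kb, but its transcripts differed by -1.63 to 8.13 kb. Ppp1r16b, which encodes a regulatory subunit of protein phosphatase 1, had fronts at 5.1, 4.5 and 5.1 kb and at 17.8, 13.1 and 16.4 kb, and its transcripts differed by -1.90 to 10.9 kb.

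The remaining genes include Tmem33 and Hmcn1, which had low WT/slow values. Tmem33, which encodes a membrane protein of the endoplasmic reticulum, had WT/slow fronts at 2.6, 3.9 and 2.6 kb, close to the recurring value of 2.5 kb, and slow/slow fronts at 12.1, 12.9 and 13.8 kb. Hmcn1, which encodes an extracellular matrix protein, had fronts at 4.5, 6.4 and 4.9 kb and at 10.2, 25.1 and 21.2 kb. Lrp2, which encodes the endocytic receptor megalin, had fronts at 2.8, 9.1 and 17.7 kb and at 34.0, 20.7 and 31.6 kb. Replicates of Lrp2 were wide apart in both genotypes, with SDs of 7.48 and 7.09 kb. Fam19a4, which encodes a secreted chemokine-like protein, had fronts at 6.1, 2.9 and 13.5 kb and at 20.8, 33.2 and 19.5 kb.

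**Figure D4:**
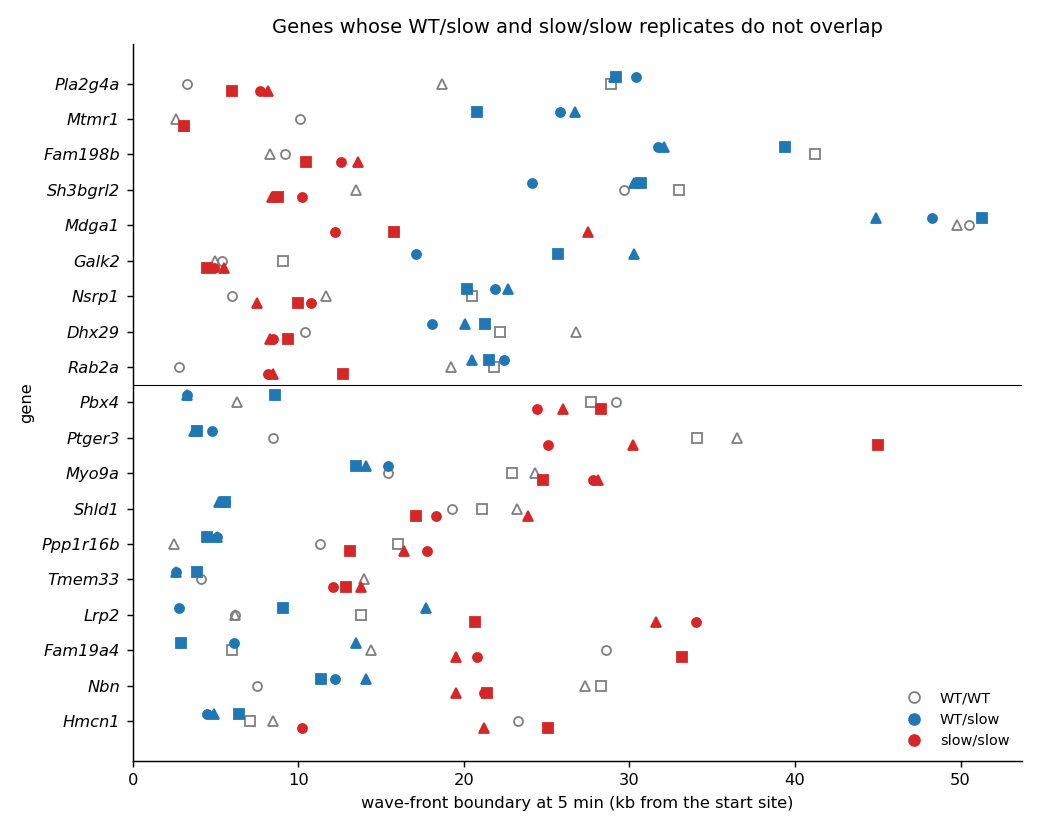
Wave-front boundaries at 5 min (x axis, kb from the start site) of 9 genes with shorter (above the line) and 10 with longer (below the line) slow/slow fronts, taken by the smallest unadjusted p among genes whose replicates do not overlap; blue is WT/slow, red slow/slow and open grey WT/WT, and circles, squares and triangles are replicates 1, 2 and 3. WT/WT values, shown where called, are widely spread in many genes, for example 3.3, 28.9 and 18.7 kb for Pla2g4a.

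The 4 genes that the study used to follow or illustrate elongation gave mixed values. Itpr1, which encodes a calcium channel of the endoplasmic reticulum (chromosome 6, 108213096 to 108551109, 338 kb), had fronts at 16.6, 30.9 and 12.4 kb in WT/slow and at 9.3, 11.1 and 8.7 kb in slow/slow replicates. The groups did not overlap, and the difference was -10.3 kb (SE 4.72, limma adjusted p = 0.476), or -4.80 kb without WT/slow replicate 2. WT/WT fronts of Itpr1 lay at 10.1, 30.6 and 38.2 kb. Notch1, which encodes a receptor of cell contact signalling, had fronts at 17.3, 21 and 9.6 kb and at 16.5, 12.9 and 11.2 kb, and Ern1, which encodes the stress sensor IRE1, at 16.7, 14.8 and 11 kb and at 15.2, 11.8 and 9.0 kb. Both overlapped, with differences of -2.43 kb (SE 3.49) and -2.17 kb (SE 2.81). Leaving out 1 sample moved that of Notch1 between -5.62 kb and 0.08 kb (without WT/slow replicate 2). It moved that of Ern1 between -3.77 kb (without slow/slow replicate 1) and -0.67 kb (without slow/slow replicate 3). The 5 tested transcripts of Ern1 differed by -7.10 to 13.0 kb, so its direction turns on the transcript chosen. Utrn, which encodes utrophin, had fronts at 22.4, 2.8 and 27.1 kb in WT/slow and at 4.7, 2.5 and 2.5 kb in slow/slow replicates and was not tested because of the values at 2.5 kb.

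Genes of the elongation machinery had shorter fronts in slow/slow cells more often than not. Of 42 elongation factors and kinases listed, 25 could be tested, 22 had a shorter mean slow/slow front, 0 passed the test, and the median difference was -3.10 kb, beside -2.40 kb over all 5222 genes, of which 74.5% were shorter. Replicates did not overlap, slow/slow lower, in 8 of the 25 (32%, beside 17.1% of all genes), and in 0 the other way (beside 1.42%). The median front of the list was 12.7, 18.6 and 16.3 kb in WT/slow and 11.8, 12.6 and 9.7 kb in slow/slow replicates, so its samples were apart by 1 step of the scale.

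Ctr9, a subunit of the PAF1 complex that travels with RNAPII, had fronts at 17.3, 20 and 21.6 kb in WT/slow and at 11.8, 11.8 and 11.7 kb in slow/slow replicates (difference -7.87 kb, SE 2.32, limma adjusted p = 0.467). Tcea1, which encodes the factor TFIIS that restarts backtracked RNAPII, had fronts at 16.7, 19.4 and 19.1 kb and at 11.6, 11.1 and 9.7 kb. The slow/slow replicates of both genes were close together and well below those of WT/slow. Other non-overlapping members, named after their values were seen, included Ccnk, Ell, Cdc73 and Nelfa, with differences from -6.03 kb (Ell) to -4.73 kb (Nelfa). Supt5, which encodes SPT5, overlapped, with a difference of -3.10 kb (SE 2.64).

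RNAPII subunits, initiation factors, Mediator and Integrator had the most negative median of the lists. Of 57 genes listed, 36 could be tested, 31 had shorter slow/slow fronts, and the median difference was -3.55 kb. These 86.1% shorter stand beside 74.5% of all genes. In 8 (22.2%, beside 17.1% of all genes) the replicates did not overlap, with slow/slow lower, and in 0 (beside 1.42%) the other way. The list's median front lay at 12, 18.1 and 14.2 kb in WT/slow and at 11.5, 11.4 and 8.95 kb in slow/slow replicates, again without overlap.

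Ints2, a subunit of Integrator, had fronts at 18.7, 15.5 and 17.9 kb and at 8.0, 11.5 and 9.6 kb. Taf2, which encodes a subunit of the initiation factor TFIID, had fronts at 18.2, 19.5 and 16.5 kb and at 11.1, 9.4 and 11.6 kb. Neither gene had overlapping groups, with differences of -7.67 kb (SE 2.37) and -7.37 kb (SE 2.28). The others without overlap, named after their values were seen, were Ints7, Med14, Med13, Polr2b, Rpap3 and Gtf2a1. Polr2b encodes the second largest subunit of RNAPII, and its difference was -5.77 kb.

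Chromatin regulators had a median difference of -2.70 kb over 80 genes, of which 62 (77.5%, beside 74.5% of all genes) were shorter in slow/slow cells. Replicates did not overlap in 11 lower (13.8%, beside 17.1%) and 1 higher (beside 1.42% of all genes). Baz2b, which encodes a bromodomain protein, had fronts at 48.4, 21.7 and 25.2 kb in WT/slow and at 12.7, 7.9 and 7.9 kb in slow/slow replicates. The difference was -22.3 kb, or -14.0 kb without WT/slow replicate 1, and the 5 tested transcripts of Baz2b differed by -22.3 to -3.17 kb. Ezh1, a histone H3 lysine methyltransferase of Polycomb complex PRC2, had fronts at 14.7, 16.1 and 19.8 kb and at 9.5, 10.5 and 10.1 kb. The 1 non-overlapping gene with higher slow/slow values was Tet1, which encodes an oxidase of 5-methylcytosine. Tet1 had fronts at 4.5, 8.7 and 6.7 kb and at 17.2, 18.8 and 9.2 kb. Its difference was 8.43 kb (SE 3.20, limma adjusted p = 0.467), and its WT/WT fronts were 9.0, 9.2 and 3.1 kb.

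Splicing and RNA processing genes had the same median difference, -2.70 kb over 57 genes, with 41 shorter (71.9%, beside 74.5% of all genes) and 12 non-overlapping lower (21.1%, beside 17.1%). Their median was -1.53 kb with boundaries at 2.5 kb included. Prpf4b, a kinase of the spliceosome, had fronts at 19, 21.3 and 20.1 kb in WT/slow and at 7.2, 11.2 and 8.8 kb in slow/slow replicates, a difference of -11.1 kb (SE 2.35). Srsf11, which encodes an SR family splicing factor, had fronts at 17.9, 20 and 17.1 kb and at 3.1, 13.9 and 8.8 kb. Both genes are short, at 27.4 and 20.8 kb, so that WT/slow fronts lay near the end of Srsf11.

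DNA repair and replication genes had a median difference of -2.37 kb over 69 genes, close to that of all genes. Of them, 54 were shorter (78.3%, beside 74.5% of all genes), 9 non-overlapping lower (13.0%, beside 17.1%) and 1 higher (beside 1.42%). Xrcc4, which encodes a factor of DNA end joining, had fronts at 17.1, 20.8 and 17.1 kb and at 7.0, 8.3 and 7.6 kb. Pold3, a subunit of DNA polymerase delta, had fronts at 19.9, 15.4 and 19.9 kb and at 10.6, 9.8 and 5.4 kb. Ubiquitin ligases and deubiquitinases had a median of -3.52 kb over 74 genes, with 56 shorter (75.7%, beside 74.5% of all genes). Of the 74, 19 were non-overlapping lower (25.7%, beside 17.1%) and 1 higher (beside 1.42%). Birc6, which encodes a large ubiquitin-conjugating inhibitor of apoptosis, had fronts at 27.2, 21.7 and 22.6 kb and at 11.1, 13.2 and 12 kb. Its 6 tested transcripts differed by -12.3 to -4.0 kb. Usp37, a deubiquitinase, had fronts at 21.4, 19.6 and 19.6 kb and at 5.6, 13 and 7.8 kb, and its 2 tested transcripts differed by -11.4 and -4.23 kb.

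Signalling and trafficking lists had medians of about -3 kb. PI3K, mTOR and Ras-MAPK genes had a median difference of -3.13 kb over 63 genes, with 53 shorter (84.1%, beside 74.5% of all genes). In this list 11 were non-overlapping lower (17.5%, beside 17.1%) and 1 higher (beside 1.42%). Akt2, a kinase of insulin signalling, had fronts at 15.7, 18.6 and 22.1 kb and at 7.8, 11 and 11.4 kb. Map3k3, a kinase upstream of MAP kinases, had fronts at 15.2, 18.2 and 23.4 kb and at 9.3, 10.5 and 9.1 kb. Genes of calcium handling, ER stress and secretion had a median of -3.25 kb over 48 genes, with 42 shorter (87.5%, beside 74.5% of all genes) and 13 non-overlapping lower (27.1%, beside 17.1%). Copa, a coat protein of COPI vesicles, had fronts at 18.5, 22.2 and 20.8 kb and at 7.5, 12 and 10.7 kb, and Sec23a, a coat protein of COPII vesicles, at 27.3, 21.4 and 18.0 kb and at 12.1, 11.6 and 9.6 kb.

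Cytoskeleton and adhesion genes had a median of -3.28 kb over 62 genes, with 42 shorter (67.7%, beside 74.5% of all genes). In this list 11 were non-overlapping lower (17.7%, beside 17.1%) and 2 higher (beside 1.42%), Myo9a and Elmo1. With boundaries at 2.5 kb included the median was -1.63 kb. Its median front was 12.6, 17.4 and 12.4 kb in WT/slow and 12.3, 10.7 and 9.2 kb in slow/slow replicates, apart by 1 step of the scale. Ctnnd1, which encodes p120 catenin, had fronts at 19.2, 17.7 and 20.1 kb and at 10.5, 9.4 and 9.1 kb. The pluripotency network and LIF pathway had 18 genes that could be tested of 67 listed, with a median of -2.97 kb, or -1.87 kb with boundaries at 2.5 kb included. Of the 18, 13 were shorter (72.2%, beside 74.5% of all genes), 2 non-overlapping lower (11.1%, beside 17.1%) and 1 higher (beside 1.42%). Smad1, a signal transducer of BMP, had fronts at 14.6, 20.1 and 17.2 kb and at 12, 9.0 and 7.2 kb. Tet1 belongs to this list too.

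Notch pathway genes had a median of -2.60 kb over 16 genes, with 11 shorter (68.8%, beside 74.5% of all genes). Of the 16, 1 was non-overlapping lower (6.25%, beside 17.1%) and 0 higher (beside 1.42%). Maml1, a coactivator of Notch, had fronts at 16.0, 17.0 and 15.8 kb and at 12.1, 10.1 and 9.1 kb, and Adam10, a protease that cleaves Notch, at 11.5, 14.6 and 34.4 kb and at 11.6, 7.7 and 8.2 kb, where the groups overlapped. Synapse and axon guidance genes had the smallest negative median, -1.80 kb over 37 genes of 97 listed. Of the 37, 26 were shorter (70.3%, beside 74.5% of all genes), 5 non-overlapping lower (13.5%, beside 17.1%) and 1 higher (beside 1.42%). Auts2, linked to neuronal development, had fronts at 11.1, 9.4 and 9.6 kb and at 6.7, 2.9 and 2.7 kb on a retained-intron transcript, and Ppfibp1, a liprin, at 16.3, 19.5 and 23.0 kb and at 16.7, 9.0 and 5.6 kb.

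Imprinted genes had the only positive median difference of the lists, 1.30 kb over 14 genes. Of these, 6 were shorter (42.9%, beside 74.5% of all genes) and 8 longer. The median difference became -0.93 kb when boundaries at 2.5 kb were included. The mean of the list's sample medians was lower in slow/slow, at 11.2 kb ± 1.48 beside 11.9 kb ± 3.77 in WT/slow cells (SD, n = 3). There were 0 genes without overlap, beside 17.1% (lower) and 1.42% (higher) of all genes. Usp29 had fronts at 26.2, 15.7 and 9.7 kb and at 6.4, 6.3 and 11.3 kb. Impact, which encodes a regulator of translation under stress, had fronts at 3.8, 8.7 and 10.9 kb and at 18.1, 9.9 and 13.3 kb. Both overlapped between genotypes. No gene of any list passed the adjusted test, and the difference between a list and other genes was not tested.

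**Figure D5:**
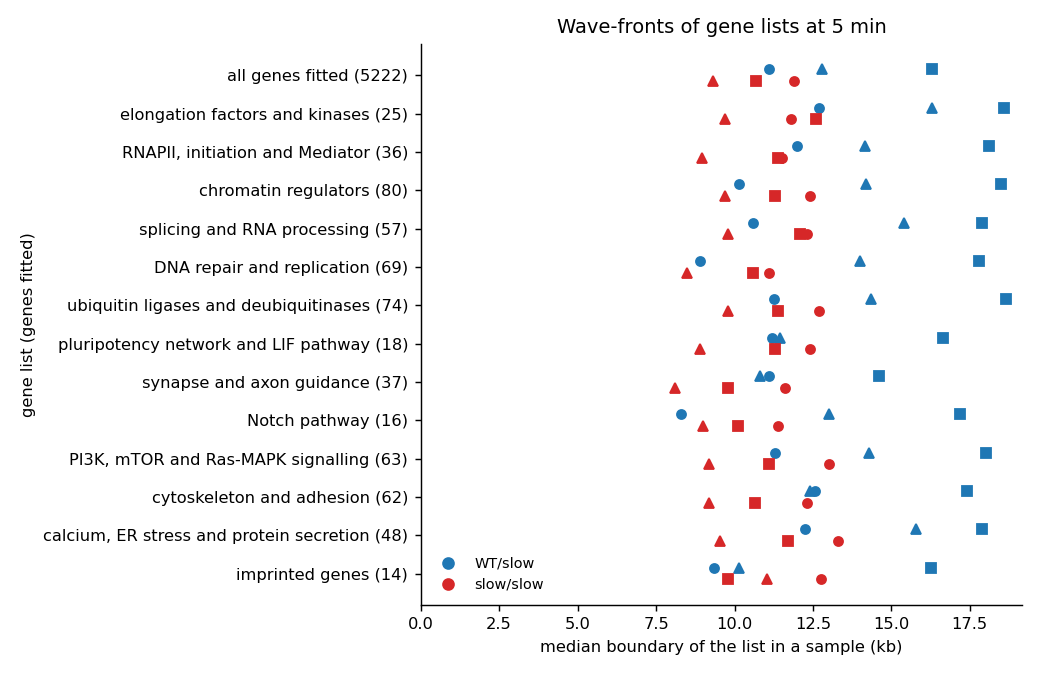
Median boundary (x axis, kb from the start site) of the genes of each list in each sample at 5 min, 1 transcript per gene, with the number of genes tested in brackets; blue is WT/slow and red slow/slow, and circles, squares and triangles are replicates 1, 2 and 3. The samples of the genotypes do not overlap in the elongation, RNAPII and cytoskeleton lists, and they overlap in the other lists and over all genes, where slow/slow medians are 9.3 to 11.9 kb and WT/slow medians 11.1 to 16.3 kb.

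The tables at 15 min, set against the same 0 min average, give further values, listed here for 12 tested genes named above whose boundaries passed 2.5 kb in all 6 of those samples. Taf2 had fronts at 44.7, 50.2 and 47.6 kb in WT/slow and at 26.8, 31.6 and 26.3 kb in slow/slow replicates at 15 min. Smad1 had fronts at 46.0, 54.0 and 42.6 kb and at 33.8, 34.8 and 28.0 kb, and Itpr1 at 48.5, 37.2 and 35.5 kb and at 29.8, 32.4 and 26.2 kb. In these 3 genes all slow/slow samples at 15 min were below all WT/slow samples. Notch1 lay at 30.3, 30.2 and 30.1 kb and at 29.6, 31.1 and 25.6 kb, and Ern1 at 31.2, 28.4 and 34.4 kb and at 31.7, 31.0 and 28.2 kb, with overlap. Values of Shld1 were 20.8, 35.1 and 42.3 kb and 31.1, 31.0 and 29.2 kb, and those of Lrp2 13.1, 35.6 and 16.4 kb and 41.3, 28.2 and 17.1 kb, both with overlap. Akt2 lay at 6.9, 30.8 and 32.6 kb and at 28.1, 31.1 and 28.8 kb, and Mtmr1 at 26.8, 20.9 and 2.6 kb and at 3.8, 18.5 and 4.7 kb, so both overlapped at 15 min. Hmcn1 lay at 4.9, 4.8 and 5.4 kb in WT/slow and at 38.9, 12.1 and 11.8 kb in slow/slow replicates at 15 min, without overlap and with slow/slow higher, and Fam19a4 at 18.2, 12.2 and 19.5 kb and at 24.0, 24.2 and 36.9 kb likewise. Tet1 overlapped at 20.5, 8.8 and 6.8 kb and at 21, 17.7 and 9.0 kb. Other tested genes did not meet this limit. Among them, Ctnnd1, Sec23a and Ppfibp1, with a shorter mean slow/slow front at 5 min, were higher in slow/slow at 15 min. Their fronts lay at 2.5 or 2.6 kb in WT/slow and at 27.8 to 36.5 kb in slow/slow. Pla2g4a stayed lower, with means of 26.3 and 3.93 kb. Ppp1r16b and Nbn stayed higher. Ctr9, Prpf4b, Srsf11 and Tmem33 stood at 2.5 kb in all 6 samples. Why such fronts were shorter than at 5 min was not tested.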

How the data were processed

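Samples, replicate numbers and times come from the labels. The authors aligned reads to mm10 (GRCm38) with Bowtie2 2.2.9, kept uniquely mapped reads outside rRNA, binned nascent RNA and called the wave end with published software whose version is not given in the sources used here. Each deposited table gives boundaries as a distance in bases and leaves a transcript empty where no wave end was called. Tables at 15 min and of WT/WT cells are used as values only. Sample medians, interquartile ranges and shares were compared by exact permutation tests over samples. Single transcripts were tested with limma 3.58.1 (R 4.3.3: lmFit, eBayes on kb) over the 13016 transcripts, called at a Benjamini-Hochberg adjusted p under 0.05, and the steps were tested on simulated data. Exons are from GENCODE M21, where 26310 members were found by identifier and 24732 had the same start and end. Python 3.11.15, NumPy 2.4.6, pandas 2.3.3, SciPy 1.17.1 and Matplotlib 3.10.9 were used.

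Members and gene lists were chosen with earlier results of these data known. Named genes were Polr2a, Ern1, Notch1, Itpr1 and Utrn, the 10 non-overlapping genes per direction with the smallest unadjusted p, the 2 genes of each list with the smallest unadjusted p, and up to 5 genes per direction at 2.5 kb in 1 genotype only, with predicted or numbered gene models passed over. Some genes that this rule names are not reported here. The longest tested transcript stood for each gene. Alternatives were transcripts of at least 60 kb, 1 transcript per gene, boundaries at 2.5 kb included, log2 values, means, each sample's own boundaries above 2.5 kb, at least 2 of 3 replicates above it, WT/WT samples added, a trended and robust variance prior, the replicate number as a block and each replicate left out. Those for the share of shorter transcripts and for non-overlap were added after seeing the data. Tables at 30 min were not used here.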

Additional observations from a re-analysis of the deposited data

How the results depend on the processing

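The median front, the interquartile range, the share of boundaries at 2.5 kb and the slope on allele number kept their direction under each alternative run for them. Leaving out a WT/slow sample could not change the slope. The exact permutation p of the slope stayed above 0.05 under each alternative. For the other measures this was fixed by the design, because so few samples cannot give an exact p below 0.1, so it says nothing about their stability. The median difference ran from -4.02 kb (without WT/slow replicate 1) to -1.42 kb (without WT/slow replicate 2) when replicates were left out, and was -1.0 kb with boundaries at 2.5 kb included. In transcripts of at least 200 kb the difference became 0 with boundaries at 2.5 kb included. The test over transcripts called 12 of 26414 with boundaries at 2.5 kb included (10 lower and 2 higher in slow/slow cells, from 9 genes), 12 when at least 2 of 3 replicates of each group had to exceed 2.5 kb (from 6 genes, all lower), 2 with 1 transcript per gene and 0 under each other alternative. Pla2g4a passed the threshold with boundaries at 2.5 kb included (limma adjusted p = 0.0258) and with 1 transcript per gene (0.0451). It also passed when at least 2 of 3 replicates had to exceed 2.5 kb (limma adjusted p = 0.0366). Its adjusted p ranged up to 0.76 over the alternatives. Transcripts whose groups did not overlap were 11.2% lower and 2.56% higher with boundaries at 2.5 kb included, and leaving out a replicate gave 2688 to 5067 lower and 275 to 947 higher, where smaller groups overlap less by construction. Notch1 ranged from -5.62 to 0.0833 kb when a replicate was left out, reversing without WT/slow replicate 2. The cause of these shifts was not tested beyond the construction named.

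Labels give both genotypes the numbers 1 to 3, without saying that a number marks a shared day or batch. Deviations of same-numbered samples correlated by r = 0.145, 0.105 and 0.0490 over transcripts, so the numbers were not taken to pair the samples, although each of the 6 samples correlated best with its own number, as a hint from the data only. In fits that took the number as a replicate block, the difference in medians was 0.8, -5.7 and -3.7 kb within numbers 1 to 3 (exact sign-flip p = 0.5, smallest possible 0.25), that in interquartile range -3.1, -3.1 and -2.8 kb (p = 0.25, exact), a ratio of 0.58, and the count of calls stayed at 0. The share at 2.5 kb differed by -7.58, 2.22 and -1.54 points within numbers.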
